A study of Homo sapiens with 10 samples.

Results

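The pigment and melanosome genes PMEL, MLANA, TYR, TYRP1, DCT, OCA2, SLC45A2, SLC24A5, GPR143 and TRPM1 were followed in BRAF-mutant melanoma cell lines before and after they had become resistant to encorafenib, a BRAF inhibitor, and binimetinib, a MEK inhibitor. The 10 genes were taken by their symbols from the 57955 genes quantified. mRNA had been sequenced from 5 drug-sensitive lines (WM902B, WM983A, WM983B, WM278 and WM1617) and from their resistant derivatives (E+BRes lines), as 1 library per line and state. The sensitive lines were the original lines without selection. The resistant lines had been passaged in both drugs at concentrations raised from 1 nM to 200 nM within 3 to 5 months and were then kept in 200 nM. WM983A, WM278 and WM902B came from primary melanomas, and WM983B and WM1617 from metastases. WM983A and WM983B came from the same patient, as did WM278 and WM1617, so the 5 lines have 3 patients as their source. All 5 carry an activating BRAF mutation, no line had a second library in either state, and resistant cells were a drug-selected culture of each line in the presence of the drugs. A lasting difference and the effect of the drugs in the medium therefore cannot be told apart.

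Melanosomes are the organelles in which melanocytes make and store melanin. PMEL forms the fibrils on which melanin is laid down, and MLANA is a membrane protein of early melanosomes. Tyrosinase (TYR) catalyses the first steps of melanin synthesis from tyrosine, and TYRP1 and DCT act further along the pathway to eumelanin, the brown and black pigment. OCA2, SLC45A2 and SLC24A5 are membrane transporters that set the ionic conditions and the pH of the organelle, GPR143 is a receptor on the melanosome membrane, and TRPM1 is a cation channel whose transcript was first noted in pigmented melanoma. Most of these genes are known targets of the transcription factor MITF, which binds the M-box, an E-box with the core CATGTG, and which acts together with SOX10.

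The promoters are shown first, because MITF binding to this core is the best known property that pigment genes share. The genes were taken by symbol, but the core is itself known from pigment gene promoters. Matches in these windows are therefore not independent evidence. RefSeq windows of GRCh38.p14, from 250 bases before to 50 bases after a transcription start, were at hand for 8 of the 10 genes, as 10 windows, PMEL and SLC45A2 not being among them. Both strands were searched for CATGTG, for the longer TCATGTGA, which contains it, and for CACGTG, the other E-box that MITF binds. CATGTG was found in 8 of the 10 windows, which belong to 7 genes, MLANA being the gene without a match. Of all 35116 windows of this length 11.1% held CATGTG. TCATGTGA occurred in 1 pigment gene window, that of SLC24A5, against 1% of all windows, and CACGTG in 0 of the 10, against 7.26% of all. A match is a description of the letters in the window and was not tested for binding. The windows of the 3 melanin-synthesis enzymes, of the receptor gene GPR143 with 2 matches, and of SLC24A5 with the longer match are given 5′ to 3′ along the gene, with CATGTG or its reverse complement CACATG in capitals.
TYR promoter, chr11:89177625-89177924, plus strand: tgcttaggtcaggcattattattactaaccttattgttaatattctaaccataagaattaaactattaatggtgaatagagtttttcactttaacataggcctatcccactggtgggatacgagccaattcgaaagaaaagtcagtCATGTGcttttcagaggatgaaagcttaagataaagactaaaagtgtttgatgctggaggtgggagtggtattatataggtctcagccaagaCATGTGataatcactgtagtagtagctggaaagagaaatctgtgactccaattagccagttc
TYRP1 promoter, chr9:12693135-12693434, plus strand: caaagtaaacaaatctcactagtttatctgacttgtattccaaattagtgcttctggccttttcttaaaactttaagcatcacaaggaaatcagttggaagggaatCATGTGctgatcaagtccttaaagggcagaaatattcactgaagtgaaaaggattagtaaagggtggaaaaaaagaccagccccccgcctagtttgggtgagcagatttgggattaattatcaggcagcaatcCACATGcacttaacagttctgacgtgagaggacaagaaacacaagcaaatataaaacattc
DCT promoter, inner start, chr13:94479633-94479932, minus strand: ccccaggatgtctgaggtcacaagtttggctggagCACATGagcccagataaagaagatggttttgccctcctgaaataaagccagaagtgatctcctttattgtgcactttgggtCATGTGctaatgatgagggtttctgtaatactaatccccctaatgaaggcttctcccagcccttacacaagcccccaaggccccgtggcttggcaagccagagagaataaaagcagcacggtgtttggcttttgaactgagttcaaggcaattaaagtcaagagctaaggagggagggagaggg
GPR143 promoter, chrX:9765798-9766097, minus strand: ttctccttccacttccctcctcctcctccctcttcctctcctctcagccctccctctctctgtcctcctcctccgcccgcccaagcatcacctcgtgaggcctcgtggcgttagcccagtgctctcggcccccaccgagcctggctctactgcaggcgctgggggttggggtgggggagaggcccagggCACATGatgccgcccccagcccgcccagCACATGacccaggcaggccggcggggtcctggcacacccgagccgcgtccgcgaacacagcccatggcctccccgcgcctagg
SLC24A5 promoter, chr15:48120740-48121039, plus strand: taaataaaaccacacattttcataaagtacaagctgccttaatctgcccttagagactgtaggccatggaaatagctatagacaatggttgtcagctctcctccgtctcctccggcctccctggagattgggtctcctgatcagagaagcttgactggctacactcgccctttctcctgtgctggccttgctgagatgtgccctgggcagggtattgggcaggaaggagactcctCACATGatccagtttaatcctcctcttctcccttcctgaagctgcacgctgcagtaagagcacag
In the TYR window the matches began 104 and 12 bases before the start site, and in the TYRP1 window 144 and 11 bases before it. The matches at DCT lay 215 and 134 bases before the inner start, and the window of the outer DCT start held none. GPR143 had matches 61 and 33 bases before its start, and SLC24A5 had a single match 15 bases before its start.

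Levels were taken from expected counts, in which a read can be shared out between genes as fractions, and were scaled between libraries by the TMM method of edgeR (normalised counts). The libraries held 13693922 to 18033247 counts each, and 3 counts were taken as the smallest level that can be detected. Intervals and this limit cover counting error only. Across the 17287 genes tested, 4 of the resistant libraries resembled the sensitive library of their own line most. The resistant WM983A library had Pearson's r of 0.787 with the sensitive WM983A library. Its r was higher with sensitive WM983B (0.793), WM278 (0.795) and WM902B (0.813), and lower with sensitive WM1617 (0.772). The counts of calls and the likeness of patterns below are therefore also given without WM983A. The folds and ratios given within WM983A carry this limit as well. In these bulk samples, fewer cells expressing a gene and less RNA per cell cannot be told apart.

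Together, the 10 genes made up 0.24% of all counts in the sensitive WM983A library (95% Wilson interval 0.238 to 0.243%). Their share was 0.132% in sensitive WM983B (0.13 to 0.134%), 0.379% in sensitive WM1617 (0.375 to 0.382%) and 0.217% in sensitive WM902B (0.214 to 0.219%). The sensitive WM278 library held only 0.000828% (0.000699 to 0.000974%), so that this line had almost no pigment gene RNA before any drug was given. After selection the share was 0.00506% in WM983A (0.00469 to 0.00544%), 0.0135% in WM983B (0.0129 to 0.0141%) and 0.00427% in WM902B (0.00395 to 0.00461%). Resistant WM1617 still had 0.371% (0.368 to 0.374%) and resistant WM278 had 0.00116% (0.001 to 0.00134%). The summed normalised count of the 10 genes was therefore 44.2-fold lower in resistant than in sensitive WM983A, 10.3-fold lower in WM983B and 51.7-fold lower in WM902B. The ratio of sensitive to resistant was 0.986 in WM1617 and 0.757 in WM278. The lines thus formed 3 patterns, a low level in the resistant library of 3 lines, a high level in both libraries of WM1617 and a low level in both libraries of WM278, and with 1 library per line and state the patterns have no replicate.

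Per kilobase of transcript, PMEL was the most abundant of the genes in 8 of the 10 libraries. Its level was 10064 normalised counts per kilobase in sensitive WM983A, 3291 in WM983B, 14442 in WM1617 and 10335 in WM902B. DCT was the next gene in sensitive WM983A (1712 per kilobase) and WM983B (1395), whereas MLANA was next in sensitive WM1617 (3479) and WM902B (1295). The order behind PMEL therefore differed between lines. The lowest per-kilobase levels in sensitive WM983A belonged to TRPM1 (4.33) and OCA2 (32.9). In resistant WM983B the highest per-kilobase level was that of GPR143 (330 against 186 for PMEL), and in resistant WM902B that of SLC45A2 (265 against 50.8 for PMEL). PMEL and DCT made up 72.2% or more of the pigment gene counts in the 4 sensitive libraries with high levels, and 19.5% in resistant WM902B.

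**Figure D1:**
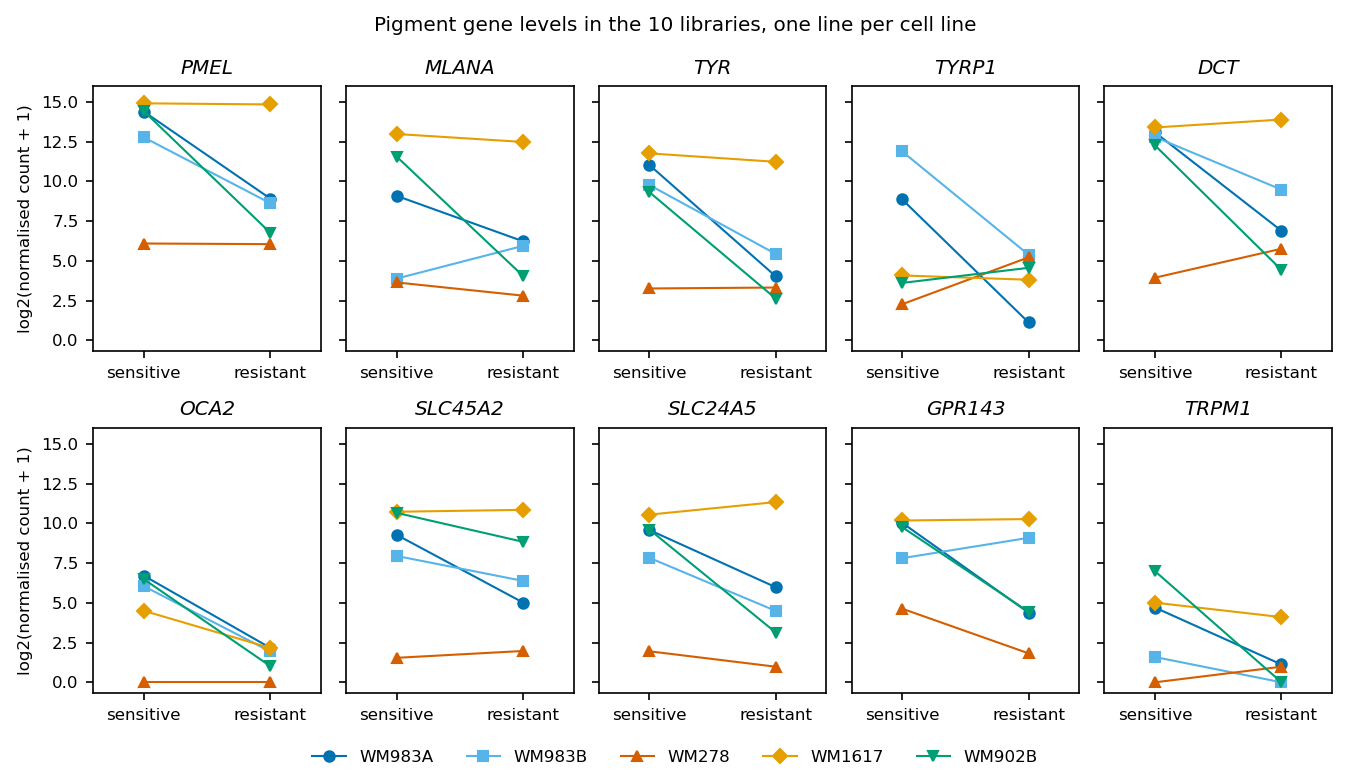
Level of each of the 10 pigment genes as log2 of the normalised count plus 1 (vertical axis) in the sensitive and the resistant library of each cell line, with 1 line of the plot per cell line and no replicate. WM1617 keeps a high PMEL level of 14.91 and 14.84 in both states, WM278 has a low one of 6.09 and 6.05, and most genes of WM983A, WM983B and WM902B slope downwards.

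The structural protein gene PMEL (ENSG00000185664, chromosome 12, 55954105 to 55973317, minus strand, GRCh38) had normalised counts of 21397 in sensitive WM983A and 6997 in WM983B, with 67.2 in WM278, 30703 in WM1617 and 21972 in WM902B. The corresponding resistant counts were 483, 395, 65.2, 29230 and 108. PMEL was thus 44.3-fold lower in resistant WM983A, 17.7-fold lower in WM983B and 203-fold lower in WM902B, while it was 1.03-fold lower in WM278 and 1.05-fold lower in WM1617. The ranges of the groups overlapped, because sensitive WM278 was lower than 4 resistant libraries and resistant WM1617 was higher than 4 sensitive ones. PMEL exons overlap exons of CDK2 on the other strand, and whether the counting used strand is not given in the sources used here, so reads of the overlap may be assigned to either gene. CDK2, a cell cycle kinase, was also lower in the resistant library of each line, by 1.35-fold in WM1617 to 5.07-fold in WM902B.

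MLANA (ENSG00000120215, chromosome 9, 5890889 to 5910606, plus strand), the MART-1 antigen recognised by melanoma-reactive T cells, differed between WM983A and WM983B, the lines of the same patient. The sensitive libraries had 543 normalised counts in WM983A and 13.7 in WM983B, with 11.5 in WM278, 8098 in WM1617 and 3016 in WM902B. The resistant libraries had 73.9, 60.2, 6.02, 5727 and 15.6. MLANA was 7.35-fold lower in resistant WM983A and 194-fold lower in WM902B, but 4.39-fold higher in resistant WM983B, where the sensitive library had few counts. The spread of MLANA over the sensitive lines alone, an SD of 4.31 on the log2 scale (n = 5), exceeded the difference between the group means, which was -1.93.

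Tyrosinase (TYR, ENSG00000077498, chromosome 11, 89177875 to 89295759, plus strand), the enzyme that limits the rate of melanin synthesis, had 2092 normalised counts in sensitive WM983A and 871 in WM983B, with 8.58 in WM278, 3458 in WM1617 and 640 in WM902B. In the resistant libraries the counts were 15.2, 42, 8.99, 2409 and 5.15. TYR was 138-fold lower in resistant WM983A, 20.7-fold lower in WM983B, 124-fold lower in WM902B and 1.44-fold lower in WM1617. The partial copy TYRL, which could share reads with TYR, had at most 143 normalised counts in any library, against 640 or more for TYR in the 4 sensitive libraries with high levels. In WM278, TYRL had 11.9 and 16.6 normalised counts, more than TYR itself, and the low TYR counts there are uncertain for this reason.

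TYRP1 (ENSG00000107165, chromosome 9, 12685439 to 12710285, plus strand), an enzyme that also stabilises tyrosinase, did not follow the other members. It had 462 normalised counts in sensitive WM983A and 3760 in sensitive WM983B, but only 3.81 in WM278, 15.9 in WM1617 and 11.2 in WM902B. The resistant libraries had 1.17, 40.6, 36.2, 13.1 and 22.7. In WM983A the ratio of sensitive to resistant was 396, with a counting interval of 70.7 to 15661, since the resistant library had a single count, and in WM983B it was 92.6. TYRP1 was 9.49-fold higher in resistant WM278 and 2.03-fold higher in resistant WM902B, at low counts throughout. WM1617, which had high levels of most members, had almost no TYRP1 in either state. TYRP1 exons overlap those of the antisense transcript LURAP1L-AS1.

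DCT (dopachrome tautomerase, ENSG00000080166, chromosome 13, 94436811 to 94479682, minus strand) had 8687 normalised counts in sensitive WM983A and 7080 in WM983B, with 14.3 in WM278, 10766 in WM1617 and 4893 in WM902B. In the resistant libraries it had 117, 712, 53.2, 15219 and 20.6. The level was 74-fold lower in resistant WM983A, 9.94-fold lower in WM983B and 238-fold lower in WM902B. DCT was 3.72-fold higher in resistant WM278 and 1.41-fold higher in resistant WM1617.

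Of the transporters, OCA2 (ENSG00000104044, chromosome 15, 27754875 to 28099315, minus strand) was the member whose groups came closest to separating. Its normalised counts were 103 in sensitive WM983A and 65.3 in WM983B, with 0 in WM278, 21.7 in WM1617 and 88.6 in WM902B, against 3.48, 2.85, 0, 3.48 and 1.03 in the resistant libraries. All 5 resistant libraries were below 4 sensitive ones, and sensitive WM278, with 0 counts, made the groups overlap. The ratio of sensitive to resistant was 29.7 in WM983A (counting interval 9.78 to 145), 22.9 in WM983B (7.49 to 114), 86 in WM902B (15 to 3430) and 6.23 in WM1617. OCA2 was the only member lower by 2-fold or more in resistant WM1617.

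SLC45A2 (ENSG00000164175, chromosome 5, 33944623 to 33984693, minus strand) had 622 normalised counts in sensitive WM983A and 246 in WM983B, with 1.91 in WM278, 1701 in WM1617 and 1620 in WM902B. The resistant counts were 31.5, 82.1, 2.91, 1839 and 457. In WM902B this gene was 3.54-fold lower, whereas PMEL, MLANA, TYR, DCT, SLC24A5 and GPR143 were 42.2-fold to 238-fold lower in the same library. SLC45A2 was 19.8-fold lower in resistant WM983A and 3-fold lower in WM983B.

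SLC24A5 (ENSG00000188467, chromosome 15, 48120990 to 48142672, plus strand), a potassium-dependent sodium and calcium exchanger, had 762 normalised counts in sensitive WM983A and 226 in WM983B, with 2.86 in WM278, 1501 in WM1617 and 779 in WM902B. The resistant libraries had 62.2, 21.5, 0.97, 2583 and 7.77. The gene was 12.3-fold, 10.5-fold and 100-fold lower in resistant WM983A, WM983B and WM902B, and 1.72-fold higher in resistant WM1617. Its exons overlap those of MYEF2 on the other strand. MYEF2 was 11-fold lower in resistant WM983B and 24.2-fold lower in WM902B, but had the same 626 normalised counts in both states of WM983A, where SLC24A5 differed.

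GPR143 (ENSG00000101850, chromosome X, 9725346 to 9786297, minus strand), the receptor affected in ocular albinism, had 1047 normalised counts in sensitive WM983A and 224 in WM983B, with 23.8 in WM278, 1157 in WM1617 and 866 in WM902B. The resistant libraries had 19.8, 542, 2.53, 1235 and 20.5. It was 52.9-fold lower in resistant WM983A and 42.2-fold lower in WM902B, and in WM278 the ratio of sensitive to resistant was 9.44 (counting interval 2.5 to 42.4). In resistant WM983B, GPR143 was instead 2.42-fold higher, although MITF, PMEL, TYR and DCT were lower in the same library.

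TRPM1 (ENSG00000134160, chromosome 15, 31001065 to 31161160, minus strand) had few counts in most libraries. Its sensitive libraries had 25.1, 2.01, 0, 31.2 and 126 normalised counts in WM983A, WM983B, WM278, WM1617 and WM902B. The resistant libraries had 1.17, 0, 0.97, 16.1 and 0 in the same order. TRPM1 was at least 40.8-fold lower in resistant WM902B, taken against 3 counts in that library, and the ratio in WM983A was 21.5 (counting interval 3.5 to 879). In WM983B and WM278 both states were at or under 3 counts, so no fold is given. TRPM1 exons overlap a long non-coding RNA of the other strand.

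**Figure D2:**
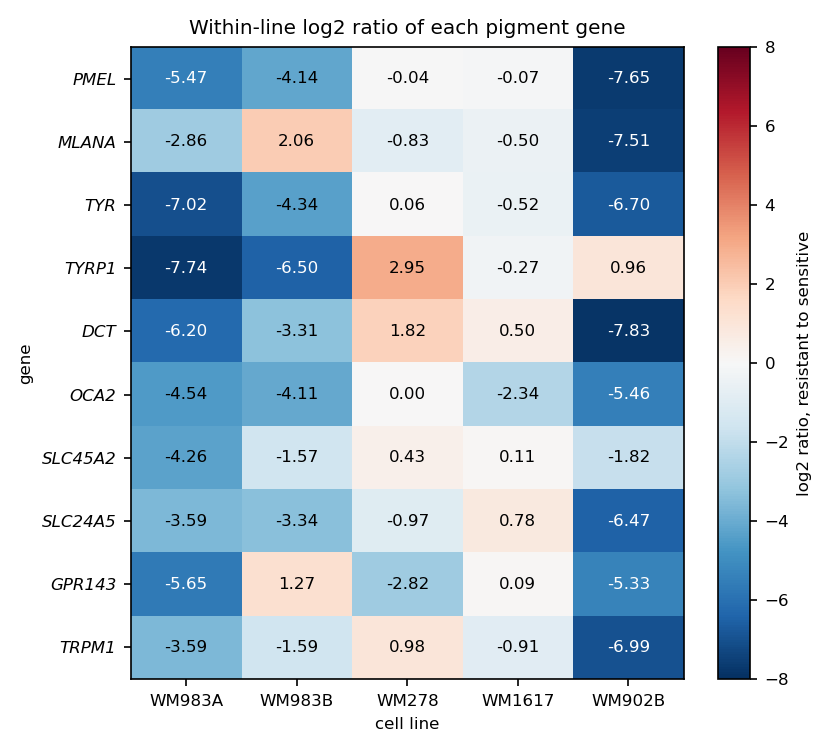
Within-line log2 ratio (resistant over sensitive normalised count, 1 added to each) for the 10 pigment genes (rows) in the 5 cell lines (columns), where blue is lower and red is higher in the resistant library. The WM983A column is negative for every gene (-7.74 to -2.86), the WM902B column for every gene but TYRP1 (0.96), and the WM1617 column stays within -0.91 and 0.78 except for OCA2 (-2.34).

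Taken line by line, genes with at least 10 counts in either library of a line were compared by the log2 ratio with 1 added to both normalised counts, without a test. In WM983A, 10 of the 10 pigment genes were lower by 2-fold or more after selection, against 20.1% of all 19042 genes with such counts. In the same line 0 were at least 2-fold higher, against 21.4%. The median ratio of the 10 genes was -5.00 on the log2 scale, and that of all genes was 0.07. In WM902B, 9 of 10 were lower (12.7% of all genes) and 0 higher (18.6%), with a median of -6.59, or -5.97 with TRPM1 set to its limit of 3 counts. In WM983B, 7 of the 9 genes with enough counts were lower (11.6% of all genes) and 2, MLANA and GPR143, were higher (20%), with a median over all 10 of -3.32. In WM1617, 1 of 10 was lower (4.89% of all genes) and 0 were higher (3.12%), with a median of -0.17. In WM278 only 5 genes reached 10 counts, of which 1, GPR143, was lower (8.12% of all genes) and 2, TYRP1 and DCT, were higher (15%), with a median over all 10 of 0.03. The ratios of a single line spread over members with an SD of 0.87 in WM1617 and 2.87 in WM902B.

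Whether the genes differed between the resistant and the sensitive group was tested with edgeR's quasi-likelihood test, 5 libraries against 5, on all genes that passed its filter on low counts. Of the pigment genes, 8 passed and OCA2 and TRPM1 did not. With Benjamini-Hochberg adjustment, 0 of the 8 had a fold change of at least 2 at an adjusted p of at most 0.05, and the same held for all 17287 genes (0%), whose smallest adjusted p was 0.63. At an unadjusted p of at most 0.05, 1235 of all genes passed whatever their fold change. With a fold change of at least 2 as well, 1 pigment gene passed as lower, TYRP1, against 0.885% of all genes, and 0 passed as higher, against 3.53%. For TYRP1 the log2 fold change was -5.21 (SE 1.82, unadjusted p = 0.0158, edgeR adjusted p = 0.63), and it was lower in 3 of 5 lines. This fold change compares group means, which for TYRP1 rest on the 3760 normalised counts of sensitive WM983B. Without WM983B the TYRP1 log2 fold change was -2.74 (unadjusted p = 0.114). DESeq2 gave TYRP1 an adjusted p of 0.0295, and it was the only pigment gene among the 0.108% of genes that this test called lower.

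The median log2 fold change of the 8 tested pigment genes was -0.98, against 0.03 for all genes tested. These fold changes compare group means, and WM1617 had the highest PMEL, MLANA, TYR, DCT, SLC45A2, SLC24A5 and GPR143 level in both groups. PMEL had a log2 fold change of -1.42 (SE 1.69, edgeR adjusted p = 0.898) and was lower in 5 of 5 lines. Without WM1617, 6 pigment genes passed the unadjusted threshold as lower, namely PMEL, MLANA, TYR, TYRP1, DCT and SLC24A5, against 2.84% of all genes, and the median of all 8 tested was -4.53. The log2 fold change of TYR was then -5.66 (unadjusted p = 0.00321, edgeR adjusted p = 0.204). WM1617 had high levels of most pigment genes in both states, so leaving it out removes a line without the difference. The fit without WM1617 is therefore no separate evidence of a group difference. Without WM983A, the line whose resistant library stood apart, TYRP1 remained the only pigment gene called, against 0.51% of all genes. Each resistant line derives from the sensitive line of its name, and when cell line was entered as a replicate block, TYR (log2 fold change -3.92, unadjusted p = 0.0292) and SLC24A5 (-3.13, unadjusted p = 0.0309) passed in place of TYRP1, against 2.05% of all genes. The adjusted p of both was 0.462 in that edgeR fit.

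By the exact two-sided permutation test of mean log2 levels, whose smallest possible p over all splits of 5 against 5 libraries is 0.00794, OCA2 was lower in the resistant group. Its mean log2 level was 4.75 ± 2.79 in the sensitive and 1.46 ± 0.94 in the resistant libraries (SD, n = 5 each), a difference of -3.29 with an exact permutation p = 0.0476. OCA2 was lower in 4 of 5 lines and at 0 in both libraries of the other. Of all 22206 genes with at least 10 counts in any library, 2.61% were lower at this p. Leaving out WM983A, WM983B, WM1617 or WM902B in turn gave an exact permutation p of 0.143 for OCA2. Leaving out WM278 gave 0.0286, the smallest p that 4 against 4 libraries can give. These tests treat the libraries as exchangeable. They ignore that each resistant line derives from a sensitive line and that some lines share a patient. The other 9 genes had exact permutation p-values of 0.127 (TRPM1) to 0.556 (SLC45A2), and a p above the threshold does not show that their levels were alike.

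MITF, the master regulator of the melanocyte lineage, had 5851 normalised counts in sensitive WM983A and 4013 in WM983B, with 163 in WM278, 9538 in WM1617 and 6114 in WM902B. The resistant libraries had 521, 561, 220, 8026 and 3348. Over the 10 libraries, which are not independent since lines share their origin, MITF had Pearson's r of 0.89 with the mean standardised level of the tested pigment genes, and of 0.87 without WM983A. The resistant WM902B library stood apart from this relation, because MITF was 1.83-fold lower there while the pigment genes summed to a 51.7-fold lower level. The member most like MITF was SLC45A2 (r = 0.97), the gene that was least reduced in resistant WM902B besides TYRP1.

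SOX10, which activates MITF and pigment genes in melanocytes, was nearly level across the sensitive libraries, at 5198, 4664, 4845, 5229 and 4844 normalised counts. In the resistant libraries it had 98.4 in WM983A and 192 in WM983B, with 4165 in WM278, 5136 in WM1617 and 10.1 in WM902B. SOX10 was thus 52.8-fold lower in resistant WM983A, 24.3-fold lower in WM983B and 479-fold lower in WM902B, the lines in which most pigment genes were lower by 2-fold or more, and 1.16-fold and 1.02-fold lower in WM278 and WM1617. The exact permutation p, which ignores the pairing of lines, was 0.0317 over the 5 against 5 libraries and 0.114 without WM983A, and edgeR's adjusted p was 0.851. Both WM278 libraries had high SOX10 and almost no pigment gene counts, and r between SOX10 and the mean of the pigment genes was 0.46, or 0.36 without WM983A. PAX3, another regulator of MITF, was 37.3-fold lower in resistant WM983A and differed by 1.25-fold to 1.76-fold in the other lines. MC1R, the melanocortin receptor upstream of MITF, had 1222 normalised counts in sensitive and 355 in resistant WM902B, and its log2 fold change over all lines was -0.75 (SE 0.69, edgeR adjusted p = 0.858).

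**Figure D3:**
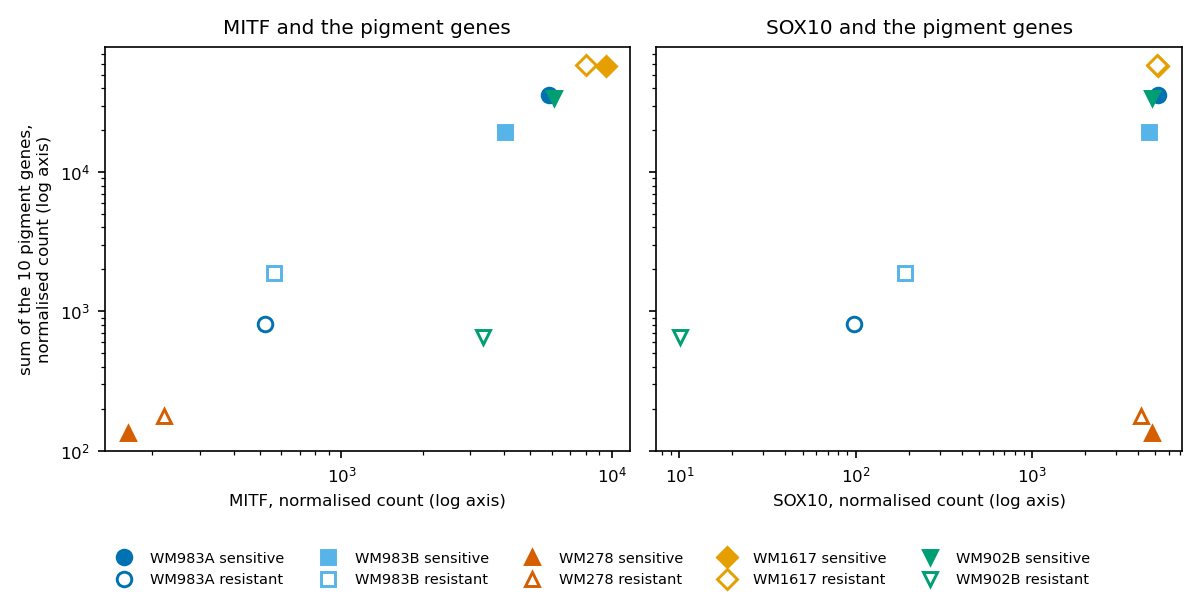
Summed normalised count of the 10 pigment genes (vertical, log axis) against the normalised count of MITF (left) and SOX10 (right, both log axes) in each library, with filled symbols for sensitive and open symbols for resistant lines. Resistant WM902B has 3348 MITF and a pigment sum of 658, and the WM278 libraries have SOX10 at 4845 and 4165 with pigment sums of 134 and 177.

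The pigment genes resembled each other over the 10 libraries, with r to the mean of the other tested members of 0.98 for PMEL, 0.97 for TYR and DCT, 0.95 for SLC24A5, 0.90 for GPR143, 0.84 for SLC45A2 and 0.77 for MLANA. TYRP1 had an r of 0.26, or 0.08 without WM983A, when the other tested members had 0.77 to 0.98. The filtered genes OCA2 and TRPM1 had 0.82 and 0.81. Among all other tested genes, the 10 whose pattern was most like the mean of the members were BCAS3 (r = 0.986), ANO4, RP11-1055B8.3, RXRG, S100A1, CTLA4, CDK2, GJB1, RAI1 and PGM1 (r = 0.957). RXRG, a retinoid X receptor, had 494, 250, 7.63, 864 and 292 normalised counts in sensitive WM983A, WM983B, WM278, WM1617 and WM902B and 8.18, 15.3, 2.35, 1070 and 3.09 in the resistant libraries. S100A1, a calcium-binding protein, had 1122, 1356, 20.6, 1491 and 1532 against 31.9, 45.3, 19.1, 1665 and 27.3. CTLA4, an immune checkpoint receptor better known from T cells, was at 37, 55.4, 0, 114 and 26.4 in the sensitive and at 1.17, 1.91, 0, 144 and 0 in the resistant libraries. Without WM983A these genes kept r of 0.954 to 0.985, and 1 of the 10, BCAS3, was again among the 10 most alike. CDK2 shares exon sequence with PMEL as given above, so its likeness is uncertain.

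The genes that serve melanosomes without making melanin were compared in the same fit. Of 18 melanosome accessory genes, for transport, docking and content of melanosomes, 0 passed the unadjusted threshold in edgeR's test, and their median log2 fold change was -0.51, or -0.25 without WM983A, when 0 passed as well. Line by line, 14 of 18 were lower by 2-fold or more in WM983A (20.1% of all genes) and 9 of 18 in WM983B (11.6%). In WM902B 7 of 17 were lower (12.7%), in WM278 3 of 17 (8.12%) and in WM1617 1 of 17 (4.89%). In the same order 2, 2, 3, 4 and 0 were at least 2-fold higher, against 21.4%, 20%, 18.6%, 15% and 3.12% of all genes. With cell line as a replicate block, 3 passed as lower, RAB38 (log2 fold change -1.98, unadjusted p = 0.00281, adjusted p = 0.462), MREG (-1.35) and RAB17 (-1.79), against 2.05% of all genes. RAB38, a small GTPase that carries TYR and TYRP1 to melanosomes, had 482, 303, 233, 1063 and 496 normalised counts in the sensitive and 102, 45.6, 48.1, 1034 and 89.7 in the resistant libraries of WM983A, WM983B, WM278, WM1617 and WM902B. In WM278 the within-line log2 ratio of RAB38 was -2.25, where that of PMEL was -0.04 and that of TYR 0.06. GPNMB, a melanosomal glycoprotein related to PMEL, went from 11812 to 215 normalised counts in WM983A and from 10727 to 5756 in WM983B, but from 1539 to 11484 in WM278, from 11006 to 14388 in WM1617 and from 7641 to 19638 in WM902B. In WM902B, PMEL and its relative GPNMB therefore differed in opposite directions. RAB27A, which links melanosomes to the actin cytoskeleton, had a within-line log2 ratio of -1.77 in WM983A and of -0.27 to -0.02 in the other lines. CAPN3, a protease with a melanocyte-specific form, had within-line log2 ratios of -5.17 in WM983A and -3.22 in WM983B, with 3.40 in WM278, -0.09 in WM1617 and -2.23 in WM902B.

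Lysosome-related organelle genes are needed for melanosomes and for related organelles of other cell types. All 20 were tested and 0 passed the unadjusted threshold, with or without the block, at a median log2 fold change of 0.02. Without WM983A, 1 of the 20 passed as higher, LYST, against 473 of all 17465 genes tested. LYST had a within-line log2 ratio of -2.74 in WM983A, the line left out, and of 0.12 to 1.76 in the other lines. Their summed normalised count ran from 16118 to 17784 in the sensitive and from 15484 to 18932 in the resistant libraries, whereas that of the 10 pigment genes ran from 134 to 57453 and from 177 to 58275. Of the 12 pigment cell regulators, 11 were tested and 0 passed, at a median of -0.44, or -0.26 without WM983A, when 0 passed as well.

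**Figure D4:**
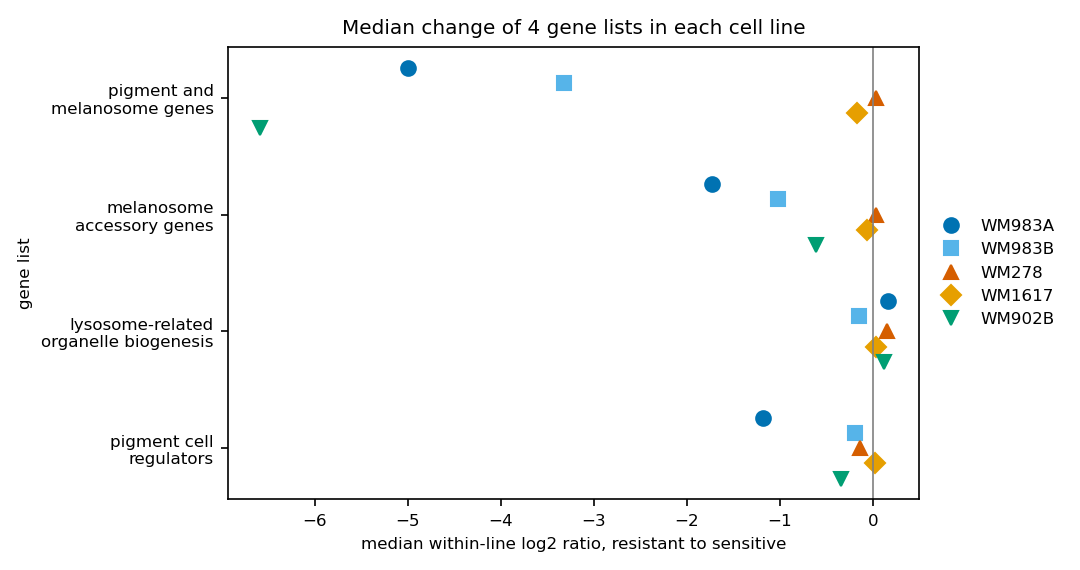
Median within-line log2 ratio, resistant over sensitive (horizontal axis), for 4 gene lists, with 1 symbol per cell line. The pigment genes reach -5.00 in WM983A, -3.32 in WM983B and -6.59 in WM902B, the accessory genes -1.73, -1.02 and -0.61, and the organelle biogenesis genes lie between -0.15 and 0.16 in all 5 lines.

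Markers of other skin and blood cells were read beside these results. Of 6 fibroblast markers tested among 8, 2 passed the unadjusted threshold as higher, COL1A1 (log2 fold change 6.11, unadjusted p = 0.00558) and PDGFRB (4.55, unadjusted p = 0.0178), against 3.53% of all genes, both with or without WM983A. With cell line as a replicate block COL1A1 passed (unadjusted p = 0.0126) and PDGFRB did not (unadjusted p = 0.0568). The fibroblast markers summed to 205 to 1357 normalised counts in the sensitive and 142 to 25631 in the resistant libraries, and COL1A1 was at 18771 in resistant WM902B and at 1353 in resistant WM983B. DCN had at most 67.9 and COL1A2 at most 12.4 normalised counts in any library. Other markers were higher, with LUM at 1168 in sensitive WM983B, FAP at 1128 in resistant WM278 and PDGFRA at 1585 in resistant WM902B. The median within-line log2 ratio of the 8 markers was -1.88 in WM983A and -0.02 in WM1617, and 2.04 in WM983B, 2.38 in WM278 and 1.32 in WM902B. The part of other cells in the lower pigment gene levels was not tested. The 6 keratinocyte markers summed to 29.7 to 148 in the sensitive and 16.5 to 347 in the resistant libraries, and DSG3 had at most 0.97 normalised counts in a library. TP63 had 17.1 in sensitive and 294 in resistant WM983B. COL17A1 had 2.7 and 80.6 in WM983A but 78.9 and 7.67 in WM278. Without WM983A, KRT15, the single keratinocyte marker tested, passed as lower, against 0.51% of all genes. In WM983A, the line left out, KRT15 had 25 normalised counts in the sensitive and 176 in the resistant library. With all lines its log2 fold change was 0.47 (edgeR adjusted p = 0.939). The 6 leukocyte markers summed to 131 to 1214 and 72.2 to 1058, with PTPRC at 5.42 or less and CD3E at 1.02 or less. CD68 held most of these counts. In WM983A, WM983B, WM278, WM1617 and WM902B it had 589, 204, 114, 1187 and 115 in the sensitive and 255, 599, 70.3, 1007 and 522 in the resistant libraries. LYZ passed as lower with the block (log2 fold change -3.40, unadjusted p = 0.0384). S100B, a marker of the melanocyte lineage, had 9218, 3548, 1411, 625 and 2673 normalised counts in the sensitive and 54.9, 133, 9512, 1575 and 11.3 in the resistant libraries, so the lineage marker was high in both WM278 libraries, which had almost no pigment gene RNA.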

How the data were processed

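The values were made by the authors from single-end reads of 75 cycles, from libraries prepared with oligo-dT selection and sequenced on an Illumina NextSeq instrument, which were aligned to GRCh38 with HISAT2 and quantified in StrandNGS. Tool versions, gene annotation and the treatment of strand and of reads shared by several genes are not given in the sources used here. For each library the authors deposited expected counts per Ensembl gene, of which 24.1% of those above 0 are whole numbers, and a normalized value on a log2 scale, which is a within-line ratio of resistant over sensitive. The deposited log2 values were used only to recover 455 counts that the file of sensitive WM983B held as dates, none of them for a pigment gene.

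The expected counts were rounded and tested in R 4.3.3 with edgeR 4.0.16 (filterByExpr, TMM, glmQLFit and glmQLFTest, two-sided, without a block, since the study's description of its differential expression test states none). DESeq2 1.42.0, limma 3.58.1 and other filters, scalings and left-out lines served as alternatives. Levels, ratios and exact permutation tests used log2 of the normalised count plus 1, in Python 3.11.15 (scipy 1.17.1, numpy 2.4.6, pandas 2.3.3, with matplotlib 3.10.9 for plots). Ratios against 1 to 3 counts carry exact 95% counting intervals. The SE printed with edgeR's log2 fold changes was derived from the test. It is the absolute log2 fold change divided by the square root of the quasi-likelihood F statistic. The fits were also run on simulated data with known changes and independent libraries. That check does not cover the pairing of lines or shared patients. No line was sampled more than once in a state, so p-values measure the spread between lines, 4 of which come from 2 patients. The pairing comes from the study, in which each resistant line derives from the sensitive line of its name. Deviations from group means correlated within lines with r of -0.06 (WM983A), 0.54 (WM983B), 0.67 (WM278), 0.67 (WM1617) and 0.38 (WM902B). Positions are from GENCODE release 44, and lengths are those of the MANE Select transcripts. The genes, the 6 lists around them and the tests were chosen with earlier results of these data known. Named were the 10 genes, list genes past the unadjusted threshold, MITF, SOX10, PAX3, MC1R, GPNMB, RAB27A and CAPN3 in any case, and the 10 genes most like the members. Genes with overlapping exons, TYRL, S100B and the markers with low or high levels were named outside this rule, after their values were seen.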

Additional observations from a re-analysis of the deposited data

Results flagged for a closer look

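Within the sensitive group, the WM278 library lay apart as the lowest of 5 for PMEL (log2 level 6.09), TYR (3.26) and DCT (3.94), with a gap to the next library of 0.758, 0.714 and 0.880 of the range, above Dixon's critical value for 5 samples. Within the resistant group, WM1617 lay apart as the highest of 5 for TRPM1 (log2 level 4.10, gap 0.728 of the range). The lowest and the highest library of each gene and group were examined, 40 group ends in all, and 4 were flagged. Chance flags about 5% of groups, and the 3 genes of WM278 are measured in the same library, so they are not separate observations.

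All 10 genes were checked for opposite signs of the ratio in lines of primary and of metastatic origin, and GPR143 alone was flagged. Its within-line log2 ratio was -5.65 in WM983A, -2.82 in WM278 and -5.33 in WM902B, the primary lines, and 1.27 in WM983B and 0.09 in WM1617, the metastatic ones. The means differed by 5.28. The difference was not tested, and 0.09 is within a 2-fold change, so of the metastatic lines only WM983B was higher by 2-fold or more. The WM278 ratio rests on 25 against 2.61 counts.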

How the results depend on the processing

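The 20 line medians (5 lines under other scalings and pseudocounts) moved by less than the SD over members, and the 200 single ratios by less than their SD over lines, none with a change of sign among those of at least 2-fold. These SDs over lines are wide, 1.87 (SLC45A2) to 4.73 (TYRP1), so this limit lets moves of several fold pass. With a pseudocount of 5 the TRPM1 ratio went from -6.99 to -4.71 in WM902B and from -1.59 to -0.49 in WM983B. With DESeq2's Wald test 107 genes passed the adjusted threshold instead of 0, and 1 pigment gene (TYRP1) instead of 0. Unadjusted, 764 of 17287 genes passed. Without the filter on low counts the number was 2258, and without a line it ran from 420 (without WM902B) through 422 (without WM983B) to 1493 (without WM1617). The number of pigment genes, 1 in the main test, was 2 without the filter (OCA2 and TYRP1, 10 tested), 0 with at least 10 counts in every library (2 tested), 0 with limma-voom and 0 to 6 without a line, namely 0 without WM983B, 2 without WM278 (TYRP1 and OCA2) and 6 without WM1617. Their median log2 fold change ran from -4.53 (without WM1617) to -0.63 (without WM902B). The SLC24A5 log2 fold change, -0.29 with all lines, changed sign without WM983A (0.06) and without WM902B (0.11) and was -4.26 without WM1617. TYRP1 lost its unadjusted call with limma-voom and without WM983B. Without WM983A, chosen after seeing the data, 1 organelle biogenesis gene and 1 keratinocyte marker passed, as given above. The permutation tests without a line (OCA2, SOX10) were likewise chosen after seeing the data. The causes of these differences were not tested.

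With cell line as a replicate block, 2 pigment genes passed as lower (TYR and SLC24A5) and TYRP1 (log2 fold change -1.71, unadjusted p = 0.452) did not. In that fit 956 of 17287 genes passed unadjusted, 354 of them as lower, and 0 passed adjusted, with a smallest edgeR adjusted p of 0.462. The block changed no other call among the pigment genes. At these depths no fold could be given in WM278 for OCA2, SLC45A2, SLC24A5 and TRPM1, nor in WM983B for TRPM1.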
